A study of Mus musculus with 12 samples.

Results

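The 30 genes described here encode the B cell receptor signalling module, from the receptor's signal-transducing chains to the transcription factors at its end, and the measurement is the accessibility of the chromatin at and around them in splenic B cells with and without LSD1. A region of the deposited accessibility table was counted for a member where it overlapped that gene's body, or where the member was the nearest protein-coding gene on mm10. This gave 563 of the 94161 regions. All 30 genes had regions, from 2 at Dok3 to 55 at Bank1, with a median of 15.5 per member against 3 per gene over the whole table. Of the 563 regions, 389 (69.1%) overlapped a gene body, compared with 57.3% of all assigned regions. The other 174 lay outside, at a median distance of 18499 bp from the assigned gene and at most 423697 bp (Pik3r1), so that for the distant ones the assignment is by position alone.

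The B cell receptor is a membrane immunoglobulin paired with Cd79a and Cd79b, whose cytoplasmic tails carry tyrosine motifs that are phosphorylated by Src-family kinases (Lyn, Blk, Fyn) and then recruit Syk. Syk phosphorylates the adaptor Blnk, around which Plcg2, the Vav exchange factors and Grb2 assemble. Plcg2 produces the second messengers that activate Prkcb, the Bcl10-Malt1 complex, NF-kB and the calcium-dependent NFAT factors, while Cd22, Cd72, Ptpn6 and Inpp5d restrain the cascade. Marginal zone B cells sit at the border of the splenic follicle and answer blood-borne antigen quickly, and follicular B cells recirculate and supply most T cell-dependent responses.

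The study applied ATAC-seq, which reads open chromatin from where a transposase can cut and tag DNA, to unstimulated spleen cells of female C57BL/6J mice, 10000 cells per library. Both populations were sorted as B220+ cells negative for Thy1.1, F4/80, CD11b, CD93 and GL7. Marginal zone B (MZB) cells were additionally CD23- CD21hi CD1d+ and follicular B (FoB) cells CD23+ CD21mid CD1d-. Each population came from LSD1 wild-type (WT) and LSD1 knockout (KO) mice, with 3 libraries in each of the 4 groups. LSD1, encoded by Kdm1a, is a histone demethylase that removes methyl groups from lysine 4 of histone H3. The sources used here do not give the cells in which Kdm1a was deleted or the Cre line. Whether the 3 libraries of a group are separate mice is not stated, and the p-values therefore reflect only library-to-library spread, which may be technical.

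Values are in rppm, reads scaled to the library's total in the deposited regions, and the libraries held 3169966 (MZB KO 2) to 10375328 (FoB WT 2) such reads. Replicate pairs differed by 1.1 to 1.85 times counting noise (chi-square per degree of freedom). The region over Kdm1a (chromosome 4, 136601890-136603082) read 24.0, 28.5 and 16.5 rppm in MZB WT and 18.9, 29.7 and 26.6 in MZB KO. It read 24.9, 21.2 and 22.2 in FoB WT and 20.5, 20.6 and 20.6 in FoB KO. Accessibility of that region does not test whether the gene was deleted. Most of the called regions at markers of the populations differed in the direction of the sort. Of 102 tested regions of the 7 marginal zone markers, 51 were higher and 8 lower in WT MZB than in WT FoB cells, and of 57 regions of the 5 follicular markers 1 was higher and 22 lower. Cd1d1, Cr2 (CD21) and Fcer2a (CD23) are among them and also defined the gates. For Cr2 the order was the opposite, with summed levels of 296 ± 9.42 rppm in MZB WT and 348 ± 23.2 in FoB WT, although MZB cells were sorted as CD21hi. Regions of the 4 B cell markers summed to 1083 to 1167 rppm in MZB WT, 1064 to 1226 in MZB KO, 1441 to 1477 in FoB WT and 1299 to 1415 in FoB KO. Regions of T cell markers summed to at most 93.1 rppm in any library, and Cd3g, Cd4 and Cd8a had no region.

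A region was tested where it reached 1 rppm in at least 3 libraries, which 552 member regions did and 11 did not. It was called where limma's Benjamini-Hochberg adjusted p over all 89782 tested regions was under 0.05. Log2 differences are on the log2(rppm + 0.5) scale, which understates the change of weak regions, and are given with their standard error. In bulk libraries, fewer cells with an open region and less opening per cell cannot be told apart.

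Tested member regions were stronger than most of the table, with a median of 6.32 rppm over the 12 libraries against 4.21 for all tested regions. The 29 member regions that overlapped an annotated start window were the strongest class, with a median of 32.4 rppm. Those in gene bodies away from starts had a median of 5.92 rppm and those outside gene bodies 6.02 rppm. Per kilobase of region, the strongest region of each member ranged from 25.0 rppm at Vav3 to 108 at Bcl10, which links the receptor's signalosome to NF-kB, and the receptor chains lay between, with 55.5 for Cd79a and 64.3 for Cd79b.

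Start windows of members are shown because regions at starts were the strongest class and several of them differed between the populations. RefSeq's start windows on GRCm38.p6 run from 250 bases before to 50 bases after an annotated start, and 25 members had at least 1 window overlapped by a tested region. The windows printed are those of Cd79a (chr7:24897247-24897546, plus strand), Vav1 (chr17:57278850-57279149, plus), Pik3cd (chr4:149698659-149698958, minus), Fyn (chr10:39369549-39369848, plus) and Dapp1 (chr3:137981500-137981799, minus), where accessibility was lower in WT MZB cells. Prkcb (chr7:122288875-122289174, plus) had a start called in neither genotype, and Rasgrp3 (chr17:75435655-75435954, plus) had the 1 member start called higher on the deposited scaling. Sequences are 5′ to 3′ on the gene's strand, and capitals mark matches on either strand to ATGCAAAT (octamer), CCCNNGGG (EBF1), GAGGAAG (PU.1), CCGGAA (ETS), TGTGGT (RUNX) and CAGNTG (E-box), where overlapping matches run together.
Cd79a: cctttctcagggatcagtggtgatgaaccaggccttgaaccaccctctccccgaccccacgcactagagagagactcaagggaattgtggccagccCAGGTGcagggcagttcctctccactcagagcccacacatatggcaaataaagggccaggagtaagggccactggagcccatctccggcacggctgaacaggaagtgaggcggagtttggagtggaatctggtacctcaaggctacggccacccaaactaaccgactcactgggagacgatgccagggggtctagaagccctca
Vav1: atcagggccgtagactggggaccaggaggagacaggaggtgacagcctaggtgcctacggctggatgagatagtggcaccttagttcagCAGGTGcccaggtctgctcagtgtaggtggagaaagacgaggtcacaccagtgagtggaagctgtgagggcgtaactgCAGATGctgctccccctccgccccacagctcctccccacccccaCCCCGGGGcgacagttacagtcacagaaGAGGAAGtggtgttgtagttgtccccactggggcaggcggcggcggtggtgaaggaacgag
Pik3cd: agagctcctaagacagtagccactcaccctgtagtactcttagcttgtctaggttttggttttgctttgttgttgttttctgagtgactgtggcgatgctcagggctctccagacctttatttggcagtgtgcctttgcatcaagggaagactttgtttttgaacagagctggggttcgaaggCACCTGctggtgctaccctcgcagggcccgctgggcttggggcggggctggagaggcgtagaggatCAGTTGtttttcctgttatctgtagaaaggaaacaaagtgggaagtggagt
Fyn: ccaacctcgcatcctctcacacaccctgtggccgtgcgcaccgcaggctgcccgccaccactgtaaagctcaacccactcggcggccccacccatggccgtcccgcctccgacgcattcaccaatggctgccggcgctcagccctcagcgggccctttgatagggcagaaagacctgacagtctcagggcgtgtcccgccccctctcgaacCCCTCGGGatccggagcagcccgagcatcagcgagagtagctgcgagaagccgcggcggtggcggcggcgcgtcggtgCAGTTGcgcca
Dapp1: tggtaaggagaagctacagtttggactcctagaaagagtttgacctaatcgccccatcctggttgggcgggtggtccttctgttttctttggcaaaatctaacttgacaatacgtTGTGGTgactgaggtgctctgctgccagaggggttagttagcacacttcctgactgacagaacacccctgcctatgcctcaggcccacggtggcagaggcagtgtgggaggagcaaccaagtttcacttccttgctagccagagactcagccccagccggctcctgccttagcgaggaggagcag
Prkcb: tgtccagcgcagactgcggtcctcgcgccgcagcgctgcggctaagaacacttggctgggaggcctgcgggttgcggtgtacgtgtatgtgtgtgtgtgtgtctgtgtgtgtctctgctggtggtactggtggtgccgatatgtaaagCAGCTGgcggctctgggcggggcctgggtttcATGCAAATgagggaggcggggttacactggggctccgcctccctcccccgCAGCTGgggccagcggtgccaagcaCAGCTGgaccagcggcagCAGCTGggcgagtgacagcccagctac
Rasgrp3: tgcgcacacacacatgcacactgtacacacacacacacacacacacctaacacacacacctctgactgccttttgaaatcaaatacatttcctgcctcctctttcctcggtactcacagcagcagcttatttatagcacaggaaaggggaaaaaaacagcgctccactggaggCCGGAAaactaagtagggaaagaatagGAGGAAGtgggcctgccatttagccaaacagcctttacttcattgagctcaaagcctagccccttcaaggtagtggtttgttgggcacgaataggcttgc

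Positions count from the annotated start to the first base of the match. The octamer, the classical immunoglobulin promoter element, was found at -70 in the Prkcb window and at -130 in that of Blnk, in 2 of 31 overlapped member windows (6.45%) against 1.74% of all 32851 windows. The EBF1 core was in 22.6% of member windows against 13.7% of all, the PU.1 core in 25.8% against 13.6%, the ETS core in 16.1% against 14.9%, the E-box in 64.5% against 51.4% and the RUNX core in 6.45% against 16.8%. Vav1, which is restricted to blood cells, had an EBF1 match at -39, a PU.1 match at -11 and E-boxes at -161 and -83. In the Fyn window an EBF1 match lay at -39 and an E-box at +40, in the Dapp1 window a RUNX match at -135, and in the Cd79a window an E-box at -154. The GC-rich core GGGNGGG (KLF), not capitalised, was in 71% of member windows against 48.1% of all. The median GC content of the member windows was 59.7% against 52.7% for all windows. The member windows were those overlapped by a tested region, while all windows include starts without one. The shares thus set accessible, more GC-rich starts against all starts and do not single out the members. The 2 Vav3 windows overlap each other, and both count for the EBF1 core. The cores are short and a match is a description of these letters, not a bound site. Cd79b, Lyn, Blk and Malt1 have no window in the table.

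Between the WT populations, 177 of the 552 member regions differed, 106 higher and 71 lower in MZB than in FoB cells. The shares over all tested regions were 24.2% higher and 11.4% lower, so that the members' 19.2% and 12.9% lay near the background (35.7% called in either direction). Of the 30 genes, 20 had regions of both kinds, 4 had higher regions alone, 4 had lower regions alone, and Cd72 and Dok3 had neither. The same shares over all genes were not counted. Members held a median of 15.5 regions against 3 per gene, and more regions give more room for both kinds, so this count does not set the members apart. In 257 member regions (46.6%) the 3 MZB libraries did not overlap the 3 FoB libraries, against 46.7% of all regions. Of the 177 called regions, 57 differed by at least 2-fold. Within 2-fold either way lay 88.95% of the 552 member regions, called or not, against 81.76% of all tested regions. The split between directions rested on the scaling: the median region of the whole table was 0.18 higher in MZB cells on the log2 scale as deposited, 0.04 higher after TMM scaling and 0.08 lower after quantile normalisation. The members' split was accordingly 70 higher and 125 lower with TMM, 58 and 113 with quantile normalisation, 80 and 130 with edgeR and 45 and 86 with DESeq2 on the recovered reads. Under all of deposited scaling, TMM, quantile and edgeR, 45 regions of 18 members were called higher and 56 regions of 21 members lower, and no region was called in opposite directions. The share of all tested regions called under all 4 was not counted, so these counts cannot be set against the background.

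Summing all regions of a gene gave a second measure that selects no region. Its counts were close with TMM, quantile normalisation and edgeR and smaller with DESeq2. Of the 30 members, 6 had a higher summed level in WT MZB cells (Syk, Blk, Fyn, Vav3, Sos1, Nfatc2) and 10 a lower (Cd79a, Cd79b, Cd22, Cd72, Grb2, Sh3bp2, Pik3ap1, Ptpn6, Vav1, Bcl10), against 24.6% and 23.2% of all 16291 genes (47.7% in either direction). With TMM it was 5 and 10, with quantile normalisation 6 and 9, with edgeR 5 and 10 and with DESeq2 3 and 8. The inhibitory genes Inpp5d and Dok3 and the kinase Lyn were called in neither direction.

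**Figure D1:**
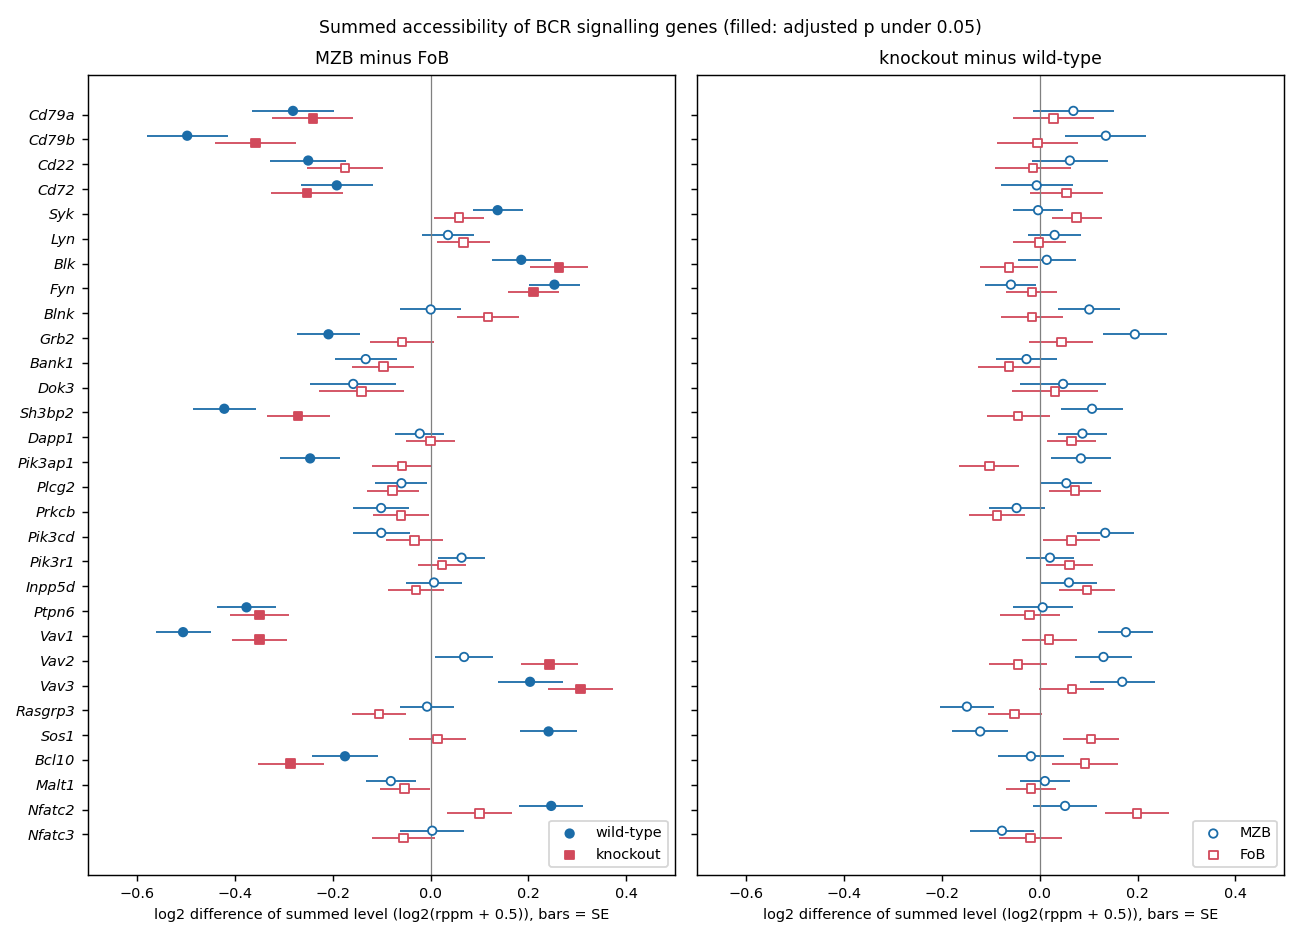
Log2 difference of the summed accessibility of each of the 30 genes, on the log2(rppm + 0.5) scale with standard errors; left, MZB minus FoB in wild-type (circles) and knockout (squares) cells, right, knockout minus wild-type in MZB (circles) and FoB (squares) cells, filled where limma's adjusted p was under 0.05. On the left 16 wild-type and 11 knockout points are filled, and on the right none is.

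The receptor chains had lower summed levels in WT MZB than in WT FoB cells, as did 23.2% of all genes and the 4 B cell markers. Of all regions at start windows, 40.9% were lower in WT MZB cells. At the Cd79a start (chr7:24897135-24897657), the strongest region of the gene, MZB WT libraries read 21.9, 24.2 and 26.4 rppm and FoB WT libraries 30.1, 33.9 and 33.2. All 3 MZB values were below all 3 FoB values, with a log2 difference of -0.42 ± 0.12 (adjusted p = 0.00578). KO cells gave 27.1, 27.5 and 23.9 against 31.0, 37.7 and 30.5 rppm, also apart, with -0.33 ± 0.12 (adjusted p = 0.0318), a call that was lost after quantile normalisation (0.115), without MZB KO 3 (0.133) and without FoB KO 2 (0.197). The strongest Cd79b region (chr11:106310028-106310514), 827 bp outside the gene, read 29.2, 25.5 and 19.6 rppm in MZB WT and 42.7, 34.4 and 33.7 in FoB WT. The groups were again apart, with -0.58 ± 0.14 (adjusted p = 0.000886) in WT and -0.55 ± 0.14 (adjusted p = 0.00169) in KO cells. Cd79b, the second signalling chain, had 3 of its 4 tested regions lower and none higher, and these 3 kept the call under all 4 scalings. Its summed level was 72.8 ± 6.19 rppm in MZB WT and 103 ± 12.3 in FoB WT (SD, n = 3), a log2 difference of -0.50 ± 0.08 (adjusted p = 2.39e-05). That of Cd79a was 48.9 ± 1.43 against 59.5 ± 0.329 rppm (adjusted p = 0.00701). Cd79a had 2 lower regions and 1 higher, 1067 bp before the start, and the higher call did not hold under all 4 scalings.

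Of the inhibitory co-receptors, Cd22, a sialic acid-binding lectin, had 2 of 6 regions lower and 1 higher, with summed levels of 87.1 ± 10.5 rppm in MZB WT and 103 ± 1.30 in FoB WT (adjusted p = 0.00955; 0.102 without MZB WT 3). Cd72, a lectin-like inhibitor, had no called region of 6 in WT cells, and its summed level there differed by -0.19 ± 0.07 (adjusted p = 0.0348). That WT call was lost under quantile normalisation, DESeq2 and the gene body alone. It was also lost under 4 of the single-library omissions (MZB WT 1 and 2, FoB WT 1 and 2, adjusted p = 0.05485 to 0.140). In KO cells the Cd72 start (chr4:43454445-43455060) was lower in MZB than in FoB cells, by -0.50 ± 0.12 (adjusted p = 0.00131), under all 4 scalings. The summed level of Cd72 was lower in KO MZB cells too, by -0.25 ± 0.07 (adjusted p = 0.00745), a call lost under none of the alternatives.

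In WT cells the largest log2 difference between the populations at a member region was inside Syk, the tyrosine kinase that the phosphorylated receptor recruits. A region 39591 bp past the nearer, internal one of its 2 annotated starts (chr13:52636150-52636796) read 25.9, 31.1 and 28.3 rppm in MZB WT, 26.8, 30.3 and 29.0 in MZB KO, 3.83, 2.99 and 3.58 in FoB WT and 2.90, 5.77 and 3.30 in FoB KO. Every MZB library was far above every FoB library, with a log2 difference of 2.87 ± 0.19 in WT (adjusted p = 2.37e-14) and 2.75 ± 0.19 in KO cells (adjusted p = 7.44e-14). The rest of the gene differed less. Syk had 4 higher and 2 lower of 23 tested regions, and the region at its other, upstream start (chr13:52582465-52583723) was lower in MZB cells, by -0.43 in WT (not called after quantile normalisation, adjusted p = 0.0869) and -0.68 in KO. The summed level of Syk was 342 ± 15.4 rppm against 310 ± 3.84, a call (adjusted p = 0.0305) lost with TMM, edgeR or DESeq2 and without MZB WT 1, FoB WT 1 or FoB WT 3 (0.0551 to 0.162).

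Among the Src-family kinases, Fyn had 19 of 35 tested regions higher (54.3%, against 24.2% of all regions) and 3 lower in WT MZB cells. The higher regions ran from 97230 bp outside the gene, on the side of its start, to the distal end of the gene body, with differences of 0.53 to 2.11, and 12 of the 19 were called under all 4 scalings. The 3 lower regions were at the start, just past it and farther into the gene. At the start (chr10:39369413-39370361) MZB WT libraries read 56.4, 53.2 and 68.7 rppm and FoB WT libraries 89.5, 90.9 and 86.0, apart, with -0.58 ± 0.09 (adjusted p = 3.71e-06). The neighbouring region (chr10:39370379-39370734) read 3.51, 3.19 and 4.98 against 10.4, 8.0 and 6.92 rppm, also apart, with -1.03 ± 0.25 (adjusted p = 0.00123). The start was thus lower while most distal regions were higher in the same cells. The largest rise, in a region 65297 bp past the start (chr10:39435031-39435161), rested on few reads: 2.97, 2.13 and 4.04 rppm against 0.548, 0.482 and 0 (32 and 7 reads in all), 2.11 ± 0.42 (adjusted p = 0.000121). In KO cells the largest rise, at chr10:39540297-39540534, was 3.73, 2.52 and 2.36 against 0, 1.03 and 1.02 rppm (32 and 9 reads), 1.66 ± 0.40 (adjusted p = 0.0015). The summed level of Fyn was 424 ± 5.96 rppm in MZB WT and 357 ± 26.0 in FoB WT (0.25 ± 0.05, adjusted p = 0.000286), a difference that was not called over regions in the gene body alone (0.185).

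Blk, a Src-family kinase largely confined to B cells, had 3 of 13 regions higher and 1 lower. In its intragenic region chr14:63388852-63389489, MZB WT libraries read 17.3, 17.3 and 19.3 rppm and FoB WT 5.48, 7.71 and 8.12, while MZB KO libraries read 17.0, 20.8 and 15.7 and FoB KO 5.38, 5.56 and 3.05. The populations were apart in both genotypes, with 1.29 ± 0.20 in WT (adjusted p = 2.16e-06) and 1.86 ± 0.20 in KO cells (adjusted p = 2.04e-09). Its strongest region overlapped between populations (45.3 ± 0.818 against 41.2 ± 5.46 rppm), and its summed level was 170 ± 7.96 against 149 ± 6.95 rppm (adjusted p = 0.013; 0.0561 with DESeq2, 0.06514 without MZB WT 3, 0.0543 without FoB WT 3). Lyn, the Src-family kinase with both activating and inhibitory functions in B cells, had 6 of 32 regions higher and 2 lower, of which 1 higher was called under all 4 scalings, and its summed level was 463 ± 5.58 against 453 ± 22.8 rppm (adjusted p = 0.617).

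**Figure D2:**
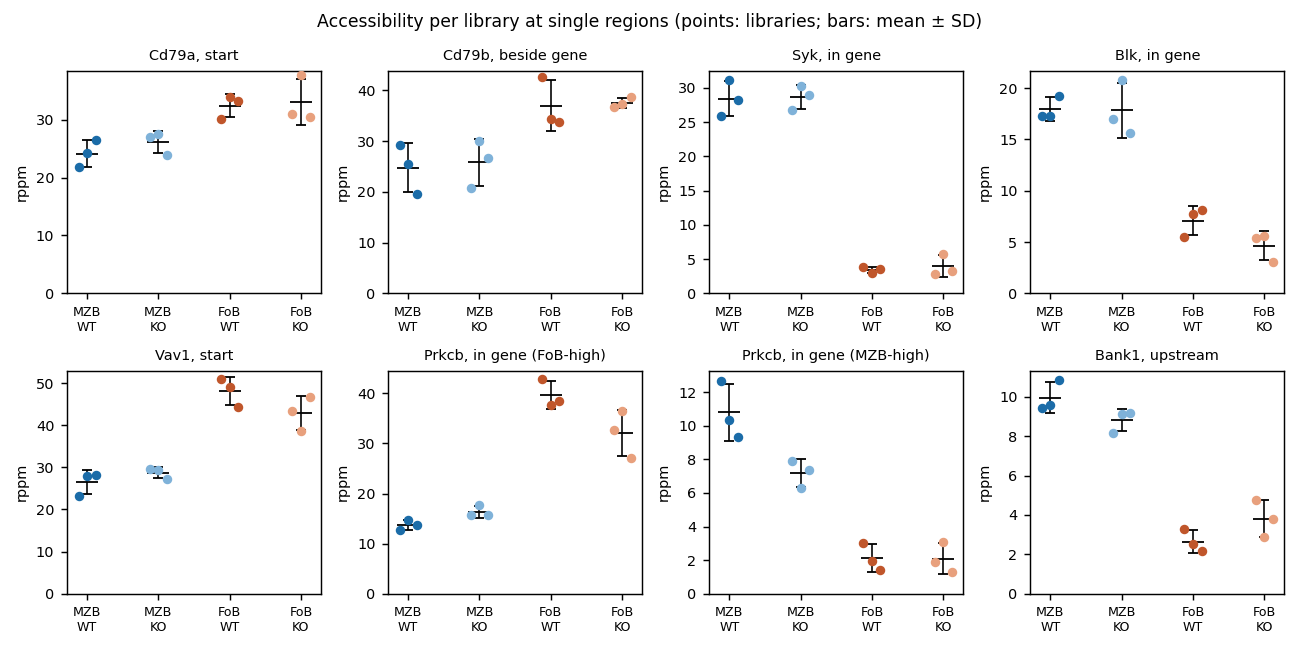
Accessibility in rppm at 8 regions of 7 genes in each of the 12 libraries (points), with the mean and SD of each group of 3. Marginal zone libraries lie below follicular ones at the Cd79a and Vav1 starts, beside Cd79b and at the Prkcb region marked FoB-high, and above them at the Syk, Blk and Bank1 regions and the Prkcb region marked MZB-high, in both genotypes.

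The adaptors, which carry no catalytic activity and bring enzymes to the receptor, had 15 regions higher (10.4%) and 23 lower (16%) of 144 in WT MZB cells, where 24.2% and 11.4% of all regions were; like the members' total, the balance of a role's calls depends on the scaling. Sh3bp2, an adaptor bound by Syk-family kinases, had 4 of 9 regions lower and none higher. Its region chr5:34520841-34521194, 4590 bp outside the gene, read 5.13, 4.52 and 4.98 rppm in MZB WT and 11.2, 9.45 and 11.0 in FoB WT, apart, with -1.04 ± 0.21 in WT (adjusted p = 0.000147) and -0.95 ± 0.21 in KO cells (adjusted p = 0.000469). The summed level was 84.7 ± 0.645 against 114 ± 4.74 rppm (adjusted p = 7.41e-06). Pik3ap1, the adaptor that couples the receptor to PI3-kinase, had 6 of 28 regions lower and 1 higher, with a summed level of 247 ± 5.84 against 292 ± 3.31 rppm (adjusted p = 0.00174). Its start (chr19:41384946-41385478) read 7.46, 9.15 and 5.32 rppm in MZB KO and 12, 13.2 and 13.5 in FoB KO, apart, with -0.81 ± 0.19 (adjusted p = 0.000862). Grb2, which recruits Sos1 to activate Ras, had 4 of 19 lower and 2 higher; its summed level was 177 ± 3.75 against 205 ± 8.34 rppm (adjusted p = 0.0105), not called over the gene body alone (0.538).

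Bank1, an adaptor in calcium signalling, had 5 of 54 regions higher and 7 lower in WT. A region 56933 bp outside the gene, on the side of its start (chr3:136383074-136383598) read 9.45, 9.57 and 10.9 rppm in MZB WT and 3.29, 2.51 and 2.15 in FoB WT, apart, with 1.75 ± 0.23 (adjusted p = 1.6e-07). In its gene body the region chr3:136303509-136303718 was the largest KO fall of any member, at 3.27, 2.84 and 3.25 rppm in MZB KO against 9.73, 6.59 and 6.86 in FoB KO, -1.17 ± 0.24 (adjusted p = 0.000186). In WT cells that region was apart too but not called (-0.50 ± 0.24, adjusted p = 0.0971). Dapp1, an adaptor that binds PI3-kinase products, combined the 2 directions: its start (chr3:137980604-137981802) read 69.1, 67.3 and 78.1 rppm in MZB WT against 103, 102 and 102 in FoB WT (-0.52 ± 0.08, adjusted p = 3.51e-06), while a region 35266 bp upstream of the gene (chr3:138016815-138017319) read 13.1, 15.8 and 12.7 in MZB KO against 2.90, 4.74 and 2.80 in FoB KO (1.88 ± 0.20, adjusted p = 1.9e-09; 1.32 ± 0.20 in WT, adjusted p = 1.71e-06). The populations were apart in both cases. Dapp1's summed level was 330 ± 16.2 against 335 ± 6.15 rppm (adjusted p = 0.741). Blnk, the central adaptor of the pathway, had 1 higher and no lower region of 13, with summed levels of 178 ± 3.30 and 178 ± 3.53 rppm (adjusted p = 0.998), and Dok3, an inhibitory adaptor, had neither of its 2 regions called.

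Plcg2, Prkcb, Pik3cd, Pik3r1, Inpp5d and Ptpn6 were grouped as lipid and calcium signalling, although Pik3r1 is a regulatory subunit. Together they had 25 regions higher (16.7%) and 16 lower (10.7%) of 150, against 24.2% and 11.4% of all regions. Pik3r1 alone held 49 of the 150 regions and 13 of the 25 higher ones. Prkcb, the protein kinase C isoform that activates NF-kB downstream of the receptor, had 7 higher and 5 lower of 40, within a single gene body and its surroundings. At chr7:122393877-122394408, 105017 bp past the start, MZB WT libraries read 12.7, 14.6 and 13.7 rppm and FoB WT 43.0, 37.7 and 38.4, with MZB KO at 15.6, 17.7 and 15.7 and FoB KO at 32.7, 36.5 and 27.2. FoB cells were above MZB cells in every library, by -1.51 ± 0.13 in WT (adjusted p = 1.44e-11) and -0.95 ± 0.13 in KO cells (adjusted p = 3.71e-07) on the MZB minus FoB scale. At chr7:122479041-122479473, 190132 bp past the start, the order was the opposite: 12.7, 10.4 and 9.33 rppm in MZB WT and 3.01, 1.93 and 1.43 in FoB WT (2.14 ± 0.27, adjusted p = 1.02e-07). The Prkcb start itself overlapped between populations (44.2 ± 5.83 against 50.1 ± 4.84 rppm, adjusted p = 0.230), and the summed level did not pass the test (331 ± 19.7 against 355 ± 4.63 rppm, adjusted p = 0.150).

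The PI3-kinase subunits also had regions of both kinds. Pik3cd, the catalytic p110-delta subunit, had 2 higher and 3 lower of 15. Its upstream start (chr4:149698360-149698940) read 13.2, 12 and 12.1 rppm in MZB WT and 28.5, 26.1 and 27.2 in FoB WT, far apart, with -1.10 ± 0.14 (adjusted p = 8.72e-08). In KO cells the same region read 17.0, 16.7 and 18 against 24.8, 16.9 and 22.1 rppm, overlapping, with -0.28 ± 0.14 (adjusted p = 0.130). The largest KO rise at Pik3cd, at chr4:149683911-149684038, was 1.65 ± 0.47 (adjusted p = 0.00643), and it was not called by DESeq2 (adjusted p = 0.0644). It rested on 16 reads in MZB KO and 2 in FoB KO, a ratio per read in regions of 10.1. The 95% exact counting interval of that ratio, 2.36 to 90.1, pools the libraries of each group and leaves out the spread between them. Pik3r1, the regulatory subunit, had 13 higher and 3 lower of 49, most of the higher ones in the gene-poor stretch upstream. A region 375678 bp outside the gene (chr13:102143895-102144207) read 3.24, 4.25 and 4.67 rppm in MZB WT and 0.548, 0.771 and 1.19 in FoB WT, apart, with 1.78 ± 0.35 (adjusted p = 0.000115). A region 319566 bp upstream (chr13:102087783-102088206) read 5.13, 5.36 and 4.14 rppm in MZB KO and 0.207, 0.206 and 0.508 in FoB KO (53 and 4 reads), 2.75 ± 0.37 (adjusted p = 2.37e-07). On the other side of the gene, chr13:101663440-101663617 was lower in KO MZB cells, at 3.27, 4.42 and 1.77 against 7.86, 5.56 and 6.61 rppm (-1.03 ± 0.27, adjusted p = 0.00267).

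Ptpn6, the SHP-1 phosphatase recruited by inhibitory receptors, had 4 of 5 regions lower and none higher, at -0.43 to -0.65, and 3 of the 4 were called under all 4 scalings. Its summed level was 125 ± 4.39 rppm in MZB WT and 163 ± 5.98 in FoB WT (-0.38 ± 0.06, adjusted p = 1.76e-05). Inpp5d, the SHIP-1 lipid phosphatase, had 2 higher and no lower of 15 and summed levels of 219 ± 5.88 and 218 ± 5.92 rppm (adjusted p = 0.930). Plcg2, the phospholipase that generates the second messengers, had 1 higher and 1 lower of 26, and its start overlapped between populations (42.7 ± 2.92 against 45.6 ± 1.53 rppm).

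The exchange factors split by gene. Vav1, the blood cell-restricted Vav protein, had 7 of 15 regions lower in WT MZB cells and none higher, and all 7 were called under all 4 scalings. Its start (chr17:57278759-57279350) read 23.2, 27.9 and 28.3 rppm in MZB WT, 29.6, 29.3 and 27.2 in MZB KO, 50.9, 49.1 and 44.4 in FoB WT and 43.5, 38.5 and 46.8 in FoB KO. The populations were apart in both genotypes, with -0.85 ± 0.11 in WT (adjusted p = 1.49e-07) and -0.57 ± 0.11 in KO cells (adjusted p = 0.000125). The summed level was 148 ± 6.00 against 211 ± 1.23 rppm in WT (-0.51 ± 0.06, adjusted p = 6.52e-08), the smallest p of any member. The largest fall, at chr17:57300246-57300381, was in a weak region (1.35, 1.06 and 0.933 against 3.01, 2.60 and 2.15 rppm; -0.93 ± 0.33, adjusted p = 0.026), and it was lost without MZB WT 2, MZB WT 3, FoB WT 1 or FoB WT 2 (0.0574 to 0.0874) and with DESeq2 (0.0676).

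Vav2, a more widely expressed Vav protein, had 7 higher and 2 lower of 26, and Vav3 5 higher and 1 lower of 23. Vav3's summed level was 118 ± 7.90 against 102 ± 6.50 rppm (adjusted p = 0.0138; 0.0665 with DESeq2 and 0.0532 to 0.07925 without MZB WT 1, FoB WT 1 or FoB WT 3). Vav2's was 299 ± 23.1 against 285 ± 14.3 in WT (adjusted p = 0.355) and 327 ± 14.7 against 276 ± 13.4 rppm in KO cells (adjusted p = 0.00163). Sos1, the Ras exchange factor, had 3 higher and no lower region of 10, all 3 called under all 4 scalings, and a summed level of 247 ± 14.7 against 209 ± 4.08 rppm (adjusted p = 0.00124; 0.0513 over the gene body alone). Rasgrp3, a Ras exchange factor activated by diacylglycerol, had 4 of each kind among 19. At the upstream start whose window is printed, chr17:75435545-75436477, the difference was 0.45 (adjusted p = 0.0269), not called with TMM, edgeR or DESeq2 or without MZB WT 2, MZB WT 3 or FoB WT 1 (0.106 to 0.280). The largest Rasgrp3 fall in WT, at chr17:75523883-75524072, read 1.62, 0.532 and 1.87 against 2.19, 3.08 and 4.30 rppm (-1.05 ± 0.37, adjusted p = 0.0229) and was lost without MZB WT 2, FoB WT 2 or FoB WT 3 (0.0545 to 0.181). In KO cells chr17:75460643-75460964 read 4.90, 5.36 and 3.84 against 7.45, 10.3 and 9.91 rppm, apart, with -0.90 ± 0.20 (adjusted p = 0.000554).

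At the end of the pathway, 13 regions were higher (30.2%) and 3 lower (6.98%) of 43, against 24.2% and 11.4% of all regions. Malt1, the protease of the complex that activates NF-kB, had 4 higher and 1 lower of 12. Its most raised region, 23985 bp outside the gene, read 3.24, 2.39 and 2.49 rppm in MZB WT and 0.548, 0.482 and 0.239 in FoB WT (29 and 8 reads), apart, with 1.80 ± 0.43 (adjusted p = 0.00107). Nfatc2, a calcium-dependent transcription factor, had 7 higher and 1 lower of 20, with a summed level of 147 ± 8.89 against 124 ± 6.58 rppm (0.25 ± 0.07, adjusted p = 0.00318). Bcl10 had 1 higher and 1 lower region of 3; neither was called under all 4 scalings, and its summed level was 146 ± 11.5 against 164 ± 5.89 rppm (adjusted p = 0.0358; 0.0522 with DESeq2 and 0.0883 to 0.230 without MZB WT 1, FoB WT 2 or FoB WT 3). Nfatc3, another NFAT factor, had 1 higher and no lower region of 8 and summed levels of 100.1 ± 3.37 and 99.8 ± 4.0 rppm.

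Regions at starts were also counted apart from the others. Of the 29 member regions at start windows, 13 were lower and 1 higher in WT MZB cells, and of all 8627 start-window regions 40.9% were lower and 8.26% higher. The members' 44.8% lower and 3.45% higher lay near these shares, with a median difference of -0.21 against -0.24. In gene bodies away from starts 65 of 355 member regions were higher and 41 lower, and outside gene bodies 40 of 168 were higher and 17 lower, so that 58 of the 71 lower regions lay away from starts. The balance away from starts depended on the scaling: of 523 such regions 105 were higher and 58 lower as deposited, but 70 and 104 with TMM, 56 and 104 with quantile normalisation, 80 and 109 with edgeR and 45 and 70 with DESeq2. At starts the 13 lower and 1 higher became 21 and 0 with TMM, 9 and 2 with quantile normalisation, 21 and 0 with edgeR and 16 and 0 with DESeq2. In KO cells 12 starts were lower and none higher, where all starts gave 35.0% and 8.21%. Between genotypes no member start was called by limma, against 0.348% higher and 0.22% lower of all starts in MZB and 0.162% higher and 0.22% lower in FoB cells; 63 and 45 member regions of any class had an unadjusted p under 0.05, which is 11.4% and 8.15% against 13.3% and 9.05% of all regions.

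**Figure D3:**
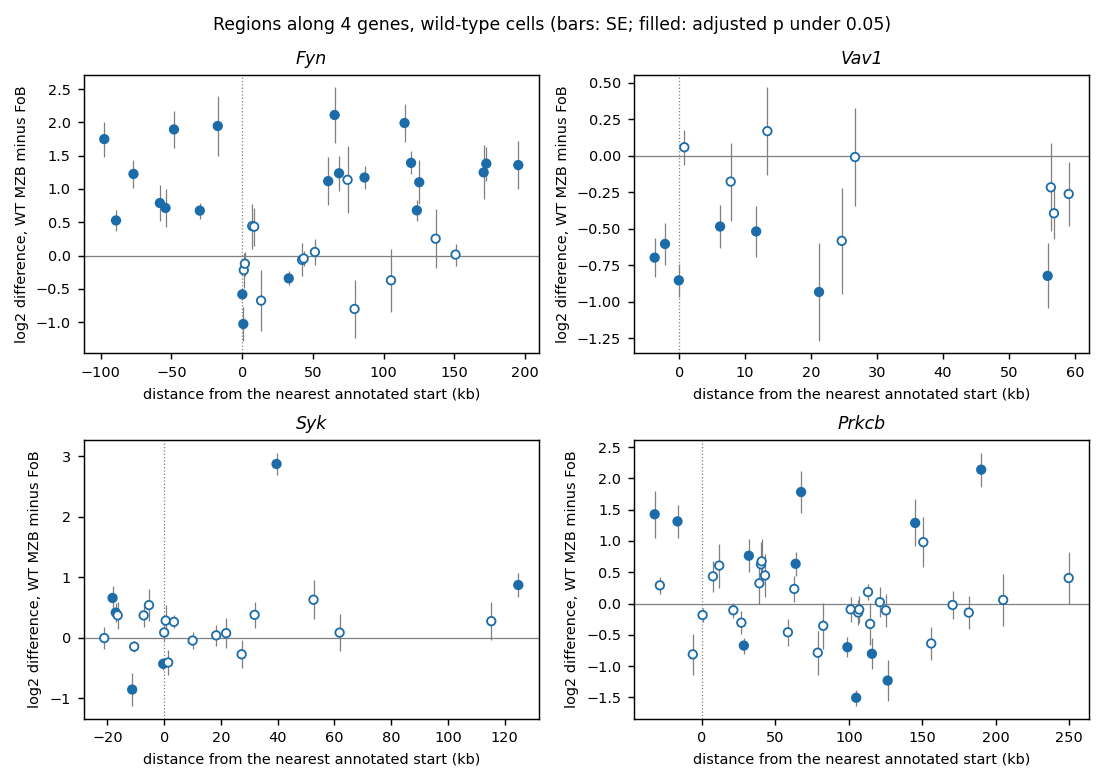
Log2 difference between WT MZB and FoB cells (log2(rppm + 0.5) scale, bars are standard errors) of each tested region of Fyn, Vav1, Syk and Prkcb against its distance in kb from the nearest annotated start, filled where limma's adjusted p was under 0.05. Fyn has 19 filled points above 0 and 3 below, Vav1 7 below and none above, and the Syk region at 2.87 stands alone in its gene body.

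The same comparison was made in KO cells. Of the 552 member regions, 109 were higher and 50 lower in KO MZB than in KO FoB cells, against 23.2% and 9.47% of all regions (32.7% in either direction). In 216 member regions (39.1%) the populations did not overlap, against 42.3% of all. The split was 78 and 107 with TMM, 54 and 80 with quantile normalisation, 72 and 111 with edgeR and 48 and 66 with DESeq2, and 46 regions of 15 members were called higher and 38 of 18 lower under all 4 scalings other than DESeq2. Here too the share of all regions called under all 4 was not counted. The WT and KO comparisons use separate libraries. Of the regions called higher, 82 were shared, 77.4% of the WT and 75.2% of the KO list. Of those called lower, 37 were shared, 52.1% of the WT and 74% of the KO list, and no region was called in opposite directions. The same overlaps over all tested regions were not counted, so these shares do not set the members apart. Over all regions, too, lower calls were fewer in KO (8503) than in WT cells (10269). Across the 552 regions, which share libraries and are not replicates, the log2 differences of the genotypes had a Pearson r of 0.78 and a Spearman rho of 0.75, and across all tested regions the Pearson r was 0.81. By summed level, 4 members were higher (Blk, Fyn, Vav2, Vav3) and 7 lower (Cd79a, Cd79b, Cd72, Sh3bp2, Ptpn6, Vav1, Bcl10) in KO MZB cells, against 23.0% and 18.9% of all genes (41.9% in either direction). Cd79a's was lost with DESeq2 (0.06515), without MZB KO 3 (0.0823) and without FoB KO 2 (0.162), and Fyn's over the gene body alone (0.482).

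**Figure D4:**
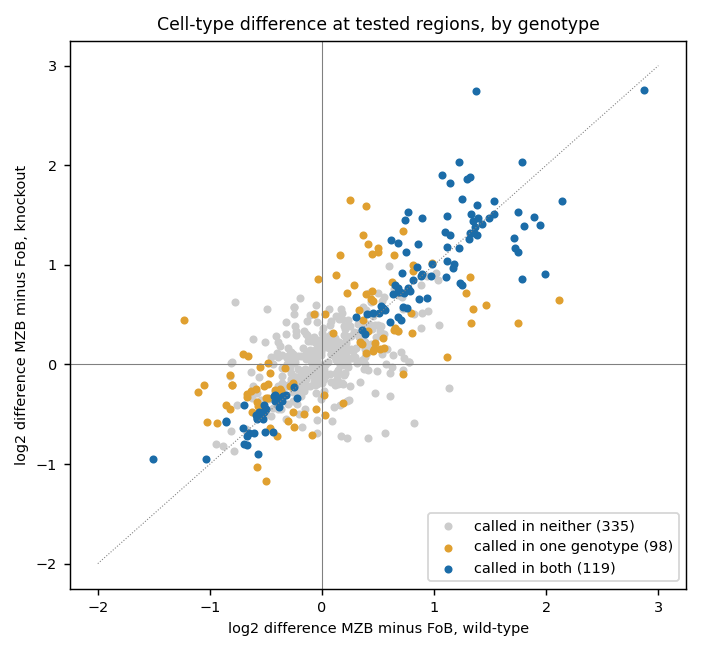
Log2 difference between MZB and FoB cells in wild-type (horizontal) and knockout (vertical) libraries for the 552 tested member regions, coloured by whether limma called the region in both genotypes (119), in a single genotype (98) or in neither (335); the dotted line marks equal differences. The 119 regions called in both lie in the upper right and lower left corners of the plot.

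Few member regions were called between the genotypes, and few of all regions were. With 3 libraries per group, a region not called is not shown to be unchanged. Between KO and WT MZB cells no member region was higher and 1 was lower, where 0.502% and 0.275% of all regions were (0.777% in either direction). At an unadjusted p under 0.05 there were 63 member regions, 11.4% against 13.3% of all regions. In 89 member regions (16.1%) the groups did not overlap, against 17.7% of all regions. The called region lay 411874 bp upstream of Pik3r1 (chr13:102180091-102180270). It read 4.86, 3.99 and 3.42 rppm in MZB WT and 1.87, 0.631 and 1.18 in MZB KO, 44 and 14 reads in all. The groups were apart, with -1.46 ± 0.35 (adjusted p = 0.032), while FoB cells read 2.18 ± 0.975 in WT and 2.03 ± 0.660 in KO. The call was lost without MZB KO 2, without MZB KO 3 and without any MZB WT library (0.0746 to 0.175), with a pseudocount of 0.1 (0.0577), and DESeq2 called no member region here (22 at an unadjusted p under 0.05).

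The next smallest p-values between the MZB genotypes were at Pik3ap1, Dapp1 and Nfatc2. The strongest Pik3ap1 region (chr19:41344664-41345338) read 19.4, 22.9 and 24.3 rppm in MZB WT and 30.1, 31.5 and 29.3 in MZB KO, apart but not called (adjusted p = 0.0619). FoB cells read 32.8 ± 1.61 in WT and 30.9 ± 3.14 in KO there. Dapp1 regions 10808 and 20284 bp upstream of the gene had 5.22 ± 2.0 against 9.09 ± 1.23 rppm and 5.77 ± 1.75 against 9.75 ± 0.287 rppm (adjusted p = 0.0822 and 0.0839). No summed level passed the test in MZB cells with limma, edgeR or DESeq2, against 1.71% higher and 1.28% lower of all genes with limma (3.0% in either direction), and 7 had an unadjusted p under 0.05 (6 with edgeR, 5 with DESeq2), 23.3% against 17.8% of all genes. The smallest was at Vav1, with 141, 153 and 151 rppm in MZB WT against 172, 161 and 170 in MZB KO (0.18 ± 0.06, adjusted p = 0.087). Regions of immature B cell markers (none at Vpreb1) moved between the same libraries: 6 of 57 were higher in MZB KO, 10.5% against 0.502% of all regions. By summed level 3 of 5 genes were higher and 0 lower. Most of the sum came from Sox4 (207 ± 9.39 rppm in MZB WT, 281 ± 3.28 in MZB KO) and Cd93 (97.7 ± 6.50 and 125 ± 8.34). The sort had excluded CD93-positive cells. All regions of these markers summed to 363 to 373 rppm in MZB WT and 469 to 495 in MZB KO. In FoB cells the sums were 558 to 596 rppm in WT and 594 to 651 in KO. The part of immature B cells in the member values was not tested.

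Between KO and WT FoB cells 2 member regions were higher and none lower (0.32% and 0.219% of all regions, 0.539% in either direction), and 45 had an unadjusted p under 0.05, 8.15% against 9.05% of all regions. In 77 member regions (13.95%) the groups did not overlap, against 14.7% of all. Both called regions lay downstream of Nfatc2, 46426 and 37046 bp outside the gene. The first (chr2:168429547-168429984) read 6.85, 8.29 and 8.12 rppm in FoB WT and 17.4, 14.0 and 15.5 in FoB KO. The groups were well apart, with 0.97 ± 0.19 (adjusted p = 0.00526; 0.0574 without FoB KO 1). MZB libraries there read 8.64, 8.51 and 10.3 in WT and 12.1, 16.4 and 8.57 in KO, overlapping. The second (chr2:168438871-168439364) read 6.30, 5.98 and 6.21 rppm in FoB WT and 12.2, 11.3 and 10.4 in FoB KO, apart, with 0.83 ± 0.18 (adjusted p = 0.019). The second call was lost without FoB KO 1, FoB KO 2 or any FoB WT library (0.0502 to 0.115), after quantile normalisation (0.0611) and with DESeq2 (0.0944). In MZB cells it read 7.56, 7.71 and 6.53 in WT and 9.80, 12 and 12.7 in KO, also apart but not called (0.62, adjusted p = 0.0964). The Nfatc2 start was 32.9 ± 6.37 against 38.7 ± 4.11 rppm in FoB cells (adjusted p = 0.566). No summed level passed in FoB cells with any of the 3 tools, against 0.89% higher and 0.565% lower of all genes with limma (1.45% in either direction), and 1 had an unadjusted p under 0.05 with each, 3.33% against 10.9% of all genes with limma.

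The effect of the knockout was not called different between the populations at any member region. limma, edgeR and DESeq2 each gave 0 regions, with 33 at an unadjusted p under 0.05 by limma (5.98%, against 6.22% of all regions), 30 by edgeR and 12 by DESeq2, and over the whole table limma called 0.00111% of regions. By summed level all 3 tools gave 0, with 3 (limma; 10% against 6.7% of all genes), 2 (edgeR) and 1 (DESeq2) at an unadjusted p under 0.05, where limma called 0.00614% of all genes in each direction and 0.0123% in either. The smallest p was at the upstream Pik3cd start described above, where MZB cells went from 12.4 ± 0.686 to 17.3 ± 0.684 rppm and FoB cells from 27.3 ± 1.18 to 21.3 ± 4.04 rppm on loss of LSD1 (adjusted p = 0.50). In Prkcb (chr7:122415484-122415702) the levels were 1.14 ± 0.379 to 2.46 ± 0.518 in MZB and 3.32 ± 0.642 to 1.66 ± 0.395 in FoB cells (adjusted p = 0.616). In the Bank1 region 92479 bp upstream they were 2.26 ± 0.200 to 4.55 ± 1.13 and 4.24 ± 0.732 to 2.97 ± 1.47 rppm (adjusted p = 0.694). These 3 regions were chosen for the smallest p of this difference, which favours means of opposite sign, and the difference of the knockout effects passed the test at none of them.

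**Figure D5:**
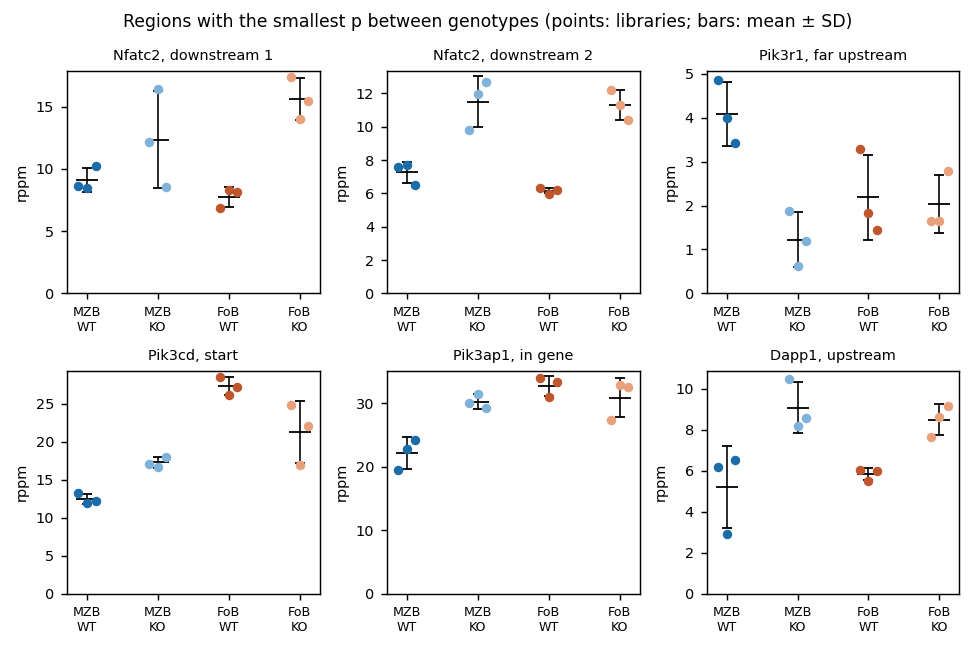
Accessibility in rppm in each of the 12 libraries (points), with the mean and SD of each group of 3, at 6 member regions with small p-values between genotypes. Only the Nfatc2 regions (FoB) and the Pik3r1 region (MZB) were called between genotypes; at the Pik3cd start the MZB KO libraries lie above MZB WT and the FoB KO libraries below FoB WT.

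Other genes of the pathway also had regions in both directions. Of 92 further pathway genes 90 had regions (Btk and Ikbkg had none), and in WT cells 262 of their 1286 tested regions were higher and 176 lower in MZB cells, with summed levels of 15 genes higher and 33 lower. These were 20.4% and 13.7% of regions, against 24.2% and 11.4% of all regions, and 16.7% and 36.7% of genes, against 24.6% and 23.2% of all genes. Between genotypes 5 were higher and 3 lower in MZB cells, and 3 higher and 2 lower in FoB cells, 0.389%, 0.233%, 0.233% and 0.156% in that order, against 0.502%, 0.275%, 0.32% and 0.219% of all regions. The regions with the smallest p in WT were at Prkcq, a protein kinase C isoform (45.4 ± 3.77 against 7.25 ± 1.55 rppm, 31722 bp outside the gene), at Itpr1, the calcium-release channel of the endoplasmic reticulum (33.0 ± 5.78 against 3.88 ± 0.270 rppm), and at Nfatc1, an NFAT factor (30.3 ± 0.937 against 5.98 ± 2.01 rppm). Regions on the lower side included a second Itpr1 region (68.9 ± 4.29 against 114 ± 4.10 rppm) and a region at Ikbkb, a kinase that activates NF-kB (0.923 ± 0.380 against 7.05 ± 0.436 rppm). Itpr1 thus had regions in both directions, as Prkcb and Fyn did among the members.

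Regions of other cell types' markers were also called between the populations, where 24.2% of all regions were higher and 11.4% lower in WT. For myeloid markers 10 of 30 regions were higher and 3 lower in WT MZB cells (232.6 to 243 rppm in MZB WT, 213 to 218 in FoB WT, none at S100a8), for NK cell markers 4 of 17 were higher and 5 lower (284 to 293 and 338 to 375 rppm), and for T cell markers 1 of 11 was higher (82.0 to 89.6 and 67.9 to 80.9 rppm). Germinal centre and plasma cell markers had 20 of 76 regions higher and 13 lower (786 to 821 and 807 to 859 rppm), and B cell markers 6 of 123 higher and 40 lower. Shares higher and lower were 33.3% and 10% for myeloid, 23.5% and 29.4% for NK and 9.09% and 0% for T cell markers. They were 26.3% and 17.1% for germinal centre and plasma cell and 4.88% and 32.5% for B cell markers. Lists mixed directions: by summed level 4 myeloid genes were higher and 1 lower (Adgre1, 111.6 against 147.1 rppm in FoB WT). The Adgre1 region with the smallest p (chr17:57346973-57347411) lay 11170 bp outside that gene, between it and Vav1, so its assignment is by position alone. That region was also higher in MZB KO than in MZB WT (40.9 ± 5.65 against 29.0 ± 1.17 rppm, adjusted p = 0.0192), 1 of 30 myeloid regions (3.33%, against 0.502% of all). Of the NK genes 2 were higher and 1 lower (Klrb1c, 279.5 against 347.3 rppm). In KO MZB cells 5 of 11 T cell marker regions were higher and 0 lower, where 23.2% and 9.47% of all regions were. Shares higher and lower in KO cells were 45.5% and 0% for T cell, 33.3% and 3.33% for myeloid and 17.6% and 23.5% for NK markers. They were 25% and 14.5% for germinal centre and plasma cell and 7.32% and 26% for B cell markers. By summed level 3 of 5 T cell genes were higher in KO MZB cells and 0 lower. The part of these cell types in the member values was not tested.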

How the data were processed

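ATAC-seq of 12 libraries (4 groups of 3, grouped by the labels' cell type and LSD1 status) was analysed from a single table that the authors deposited, with 1 row per region and values in RPM over the reads in the listed regions (rppm). The tools listed per the submitters' processing notes are Bowtie 1.1.1 and MACS2, with the build mm10. Coordinates are printed as deposited, and their counting base, the read filters, region merging and any Tn5 offset are not given in the sources used. Whole reads were recovered from the deposited RPM steps (100% of values whole within 0.01 of a read), giving the depths in the report. Precision follows these counts: in the shallowest library 3 reads are 0.946 rppm and in the deepest 0.289.

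Each region was assigned to an overlapping or nearest protein-coding gene of RefSeq's GRCm38.p6 table, with all 30 members found and 92 scaffold regions left out of the assignment. Regions with at least 1 rppm in 3 libraries were tested on log2(rppm + 0.5) with limma 3.58.1 (trend, 1 coefficient per group, all 12 libraries, R 4.3.3), with Benjamini-Hochberg adjustment over all 89782 regions; summed levels per gene were tested alike over 16291 genes. All tests are two-sided. Alternatives were pseudocounts of 0.1 and 2, filters, TMM, quantile normalisation, edgeR 4.0.16 and DESeq2 1.42.0 on the recovered reads, a replicate block, gene bodies alone and leaving out each library. On the recovered reads of all regions in WT cells, edgeR called 18145 higher and 17052 lower in MZB. The script was tested on simulated data.

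Regions named are, per comparison and direction, those of up to 6 members with the largest called change (1 per gene), the strongest regions of the receptor chains, the smallest p-values where little was called, and 3 other pathway regions per direction, of which 1 is not reported here. The members and lists were chosen with earlier results of these data known. Start regions and other regions outside this rule were chosen after their values were seen. Proteins were not used here.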

Additional observations from a re-analysis of the deposited data

How the results depend on the processing

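Scaling decided the balance of directions between the populations, and the cause was not tested. Against 106 higher and 71 lower regions in WT and 109 and 50 in KO cells, TMM gave 70 and 125 (78 and 107 in KO), quantile normalisation 58 and 113 (54 and 80), edgeR 80 and 130 (72 and 111) and DESeq2 45 and 86 (48 and 66). Gene bodies alone, which leave fewer regions, gave 66 and 68 higher, and the filter of 5 rppm gave 69 higher in KO cells. Leaving out single libraries gave 81 to 113 higher and 57 to 76 lower in WT, and 81 to 109 higher and 39 to 52 lower in KO cells. By summed level these omissions gave 3 to 6 higher and 8 to 10 lower in WT, 4 to 5 and 6 to 8 in KO cells, and 0 to 1 higher in MZB KO against WT; DESeq2 gave 3 higher in WT. Between MZB genotypes, 1 region was higher with a pseudocount of 2 or the filter of 5 rppm and 3 with quantile normalisation, while 0 were lower with a pseudocount of 0.1, the filter, DESeq2 or gene bodies alone; omissions gave 0 to 1 in either direction. Between FoB genotypes, quantile normalisation and DESeq2 gave 1 higher and gene bodies alone 0, because both Nfatc2 regions lie outside the gene; omissions gave 0 to 3 higher (0 without FoB KO 1, 1 without FoB KO 2 or any FoB WT library, 3 without FoB KO 3) and 0 to 1 lower (1 without FoB KO 2). Whether same-numbered libraries are paired is not stated. Their deviations correlated at -0.0934 to 0.134 and those of different-numbered libraries at -0.209 to 0.195, which cannot decide it. With the replicate block the counts were 106 and 76 in WT, 107 and 51 in KO, 0 and 1 in MZB and 2 and 0 in FoB cells. Uncalled values near 0 changed sign: over the omissions the start of Cd79a ranged from -0.072 to 0.0786 between FoB genotypes, and the Cd79b region from -0.0313 to 0.138 between FoB genotypes, -0.096 to 0.205 between MZB genotypes and -0.126 to 0.174 for the difference of the knockout effects (-0.008994 with edgeR). Depth limits the weak regions: in the shallowest library a count of 0 allows a level of up to 0.946 rppm.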
